A study of Mus musculus with 23 samples.

Results

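The 10 genes of this account encode the machinery that makes peptides inside the cell and presents them on MHC class I, together with an activator of class I transcription. They are H2-K1, H2-D1, B2m, Tap1, Tap2, Tapbp, Psmb8, Psmb9, Psmb10 and Nlrc5, and were taken as every spot of the arrays that carried 1 of these gene names. This gave 13 of 55681 probes on 32 spots, and 11 of the 13 probes and all 10 genes passed the filter on dim probes, of 21477 genes measured. The set was chosen by the values measured in the comparison of the diets and by co-variation over the mice, so both are described here with no test of the genes themselves.

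The RNA came from scrapings of the small intestine of 23 adult male C57BL/6J mice, with 1 array per mouse. After 3 weeks on normal-fat food every mouse ate high-fat food for 12 weeks, with nothing added in 12 mice (HF) and with the flavonol quercetin at 0.33% by weight in 11 mice (HF-Q). Food was withheld for the last 2 to 4 hours. The groups thus share the high-fat diet, and no mouse kept on a normal-fat diet was analysed here. Each value is a log2 ratio of the mouse (Cy5) to a pool of all samples (Cy3), so 0 is the level of the pool and the values give differences between mice, not absolute levels. The 23 arrays lay on 3 slides, and each slide held mice of both diets. A protocol field names liver as the source of the RNA, but all 6 enterocyte markers were well above background on all 23 arrays, whereas the hepatocyte markers Ahsg and Mup3 were on 0, Fgb and Hpx on 2, Alb on 11 and Apoh on 23.

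In every nucleated cell, proteasomes cut proteins to peptides, and cells exposed to interferon-gamma replace the catalytic subunits by those of the immunoproteasome (Psmb8, Psmb9 and Psmb10). The transporter Tap1-Tap2 moves the peptides into the endoplasmic reticulum, where tapasin (Tapbp) helps to load them on a heavy chain (H2-K1 or H2-D1) bound to beta-2-microglobulin (B2m), for recognition by CD8 T cells. Nlrc5 activates transcription of class I genes, and in the intestine the epithelium that carries class I lies next to many cytotoxic intraepithelial lymphocytes.

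All 10 genes had a higher mean with quercetin, by 0.037 to 0.30 on the log2 scale, where 48.1% of all genes measured had a difference above 0. None was called at an adjusted p under 0.05 in limma, nor was any of the 21477 genes (0%). At an unadjusted p under 0.05 there were 3 of the 10, Tap1, Psmb8 and Psmb9, all higher, against 2.1% of all genes higher and 2.42% lower (452 and 520 genes), and nothing is read from that count since the same comparison chose the genes. With each array centred on its median in place of loess, those totals became 737 higher and 108 lower, and all 10 genes were still higher. The diets differed least in H2-K1 and Tapbp and most in Tap1, Psmb8 and Psmb9, and they overlapped for every gene, as the plot of all mice shows. In bulk tissue fewer cells of a type and less RNA per cell cannot be told apart.

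**Figure D1:**
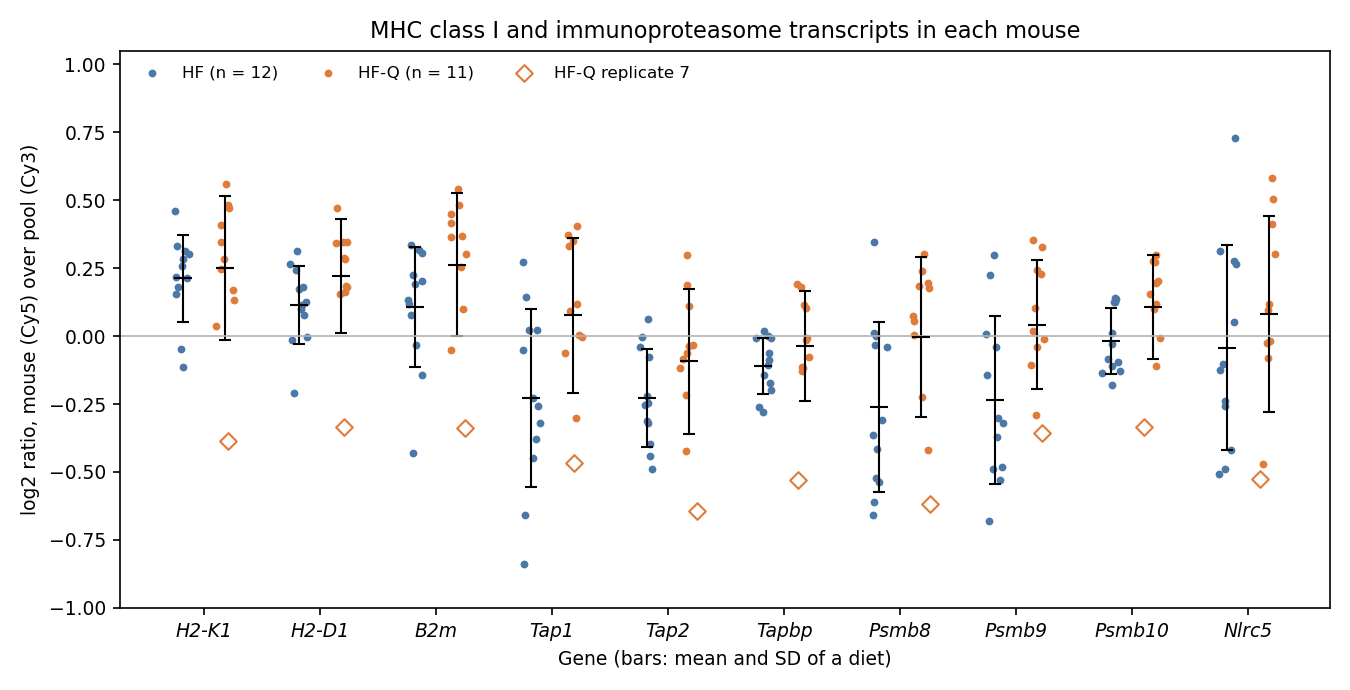
Log2 ratio to the pool (y axis) of the 10 genes (x axis) in each HF and HF-Q mouse, with the mean and SD of each diet as bars. The HF-Q mean lies above the HF mean for each gene, the diets overlap, and HF-Q replicate 7 (open diamond) is the lowest HF-Q mouse for all 10 genes.

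Of the heavy chains and B2m, H2-K1 differed least between the diets and B2m most. H2-K1 ranged from -0.11 over a median of 0.24 to 0.46 in HF and from -0.39 over 0.28 to 0.56 in HF-Q. Its means were 0.21 ± 0.16 (SD, n = 12) and 0.25 ± 0.27 (SD, n = 11), a difference of 0.037 ± 0.087 (SE) that is smaller than either SD. The lowest and the highest mouse were both HF-Q mice, so the HF-Q values enclosed the HF values. H2-D1 ranged from -0.21 over 0.12 to 0.31 in HF and from -0.34 over 0.28 to 0.47 in HF-Q, with means of 0.11 ± 0.14 and 0.22 ± 0.21 and a difference of 0.11 ± 0.073 (SE). Here 10 of 11 HF-Q mice exceeded the HF median, the exception being replicate 7. B2m ranged from -0.43 over 0.16 to 0.33 in HF and from -0.34 over 0.36 to 0.54 in HF-Q, with means of 0.11 ± 0.22 and 0.26 ± 0.26 and a difference of 0.15 ± 0.096 (SE). In B2m 8 of 11 HF-Q mice were above the HF median, and the lowest mouse of all was HF replicate 12. Heavy-chain genes are near-identical copies, so the signal of a probe of H2-K1, H2-D1 or another heavy chain may include other heavy chains and is uncertain in that respect.

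Because the heavy chains and B2m varied together over mice, their RefSeq promoters (assembly GRCm38.p6, from 250 bases before to 50 after the start site) were searched on both strands for 6 motifs. These were the core of the interferon response element, GAAANNGAA, and its variant GAANNGAAA, the gamma-activated site TTCNNNGAA, the X2 box core TGACG, the Y box CCAAT and the kappa B site GGGNNTTCC. The table held 8 of the 10 genes, and Tap2 and Nlrc5 were not analysed here in this respect. The stretches upstream of the start that hold the matches follow with the matches in capitals, so that the class I promoters can be compared. No matches overlapped in these stretches, and of 2 windows listed for H2-K1 the one that starts further upstream was used.
H2-K1 (chr17:34000348-34000463, minus strand): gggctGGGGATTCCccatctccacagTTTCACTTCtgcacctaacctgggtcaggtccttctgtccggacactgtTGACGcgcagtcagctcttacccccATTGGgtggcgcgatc
H2-D1 (chr17:35262918-35263050, plus strand): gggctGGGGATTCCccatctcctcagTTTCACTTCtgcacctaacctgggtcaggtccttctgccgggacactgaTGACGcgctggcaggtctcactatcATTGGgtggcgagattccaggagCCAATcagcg
B2m (chr2:122147543-122147686, plus strand): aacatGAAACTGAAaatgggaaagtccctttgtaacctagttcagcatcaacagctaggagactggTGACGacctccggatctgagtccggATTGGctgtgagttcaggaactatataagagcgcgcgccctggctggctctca
The H2-K1 and H2-D1 promoters carried the same order of a kappa B site, the variant response element on the minus strand, TGACG and CCAAT on the minus strand. Over the first 105 printed bases, up to the end of that CCAAT match, 94 (89.5%) were the same in both. B2m carried the core response element, TGACG and CCAAT, and no kappa B match in this window. TGACG was found in the windows of 5 of the 8 genes (H2-K1, H2-D1, B2m, Tap1 and Psmb9) and in 20.8% of all 32851 windows of that length. CCAAT was found in 6 of 8, which adds Tapbp, and in 37.4% of all windows. The kappa B site and the variant response element were in H2-K1 and H2-D1, against 5.82% and 7.52% of all windows, the core element in B2m alone of the 8, against 8.56%, and TTCNNNGAA in Psmb8 alone, against 8.30%. No motif was matched in the Psmb10 window. A match is a stretch of letters, and binding was not measured.

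The peptide transporter and tapasin differed from each other in size of difference. Tap1, the transporter subunit, ranged from -0.84 over -0.24 to 0.27 in HF and from -0.47 over 0.092 to 0.41 in HF-Q. Its means were -0.23 ± 0.33 (SD, n = 12) and 0.076 ± 0.28 (SD, n = 11), a difference of 0.30 ± 0.12 (SE), or 1.23-fold, the highest of the 10. In Tap1 9 of 11 HF-Q mice were above the HF median, and the 2 below it were HF-Q replicates 7 and 10. Tap2, its partner subunit, ranged from -0.49 over -0.25 to 0.063 in HF and from -0.64 over -0.061 to 0.30 in HF-Q, and differed by 0.14 ± 0.090 (SE). HF-Q replicate 7 was the lowest mouse of all for Tap2, although 9 of 11 HF-Q mice were above the HF median. Tapbp, the chaperone that joins the transporter to the heavy chain, ranged from -0.28 over -0.097 to 0.017 in HF and from -0.53 over -0.013 to 0.19 in HF-Q, and differed by 0.073 ± 0.066 (SE). Tapbp had the narrowest HF spread of the 10 genes (SD 0.10), and 7 of 11 HF-Q mice exceeded the HF median.

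The immunoproteasome subunits Psmb8 and Psmb9 came next to Tap1. Psmb8, the chymotrypsin-like subunit, ranged from -0.66 over -0.34 to 0.35 in HF and from -0.62 over 0.074 to 0.30 in HF-Q, with means of -0.26 ± 0.31 and -0.0022 ± 0.29 and a difference of 0.26 ± 0.12 (SE), or 1.20-fold. Its highest mouse was HF replicate 8, and 9 of 11 HF-Q mice were above the HF median. Psmb9 ranged from -0.68 over -0.31 to 0.30 in HF and from -0.36 over 0.020 to 0.35 in HF-Q, with means of -0.24 ± 0.31 and 0.043 ± 0.24 and a difference of 0.28 ± 0.11 (SE), or 1.21-fold. In Psmb9 10 of 11 HF-Q mice were above the HF median. Psmb10, the third inducible subunit, had a smaller spread, from -0.18 over -0.057 to 0.14 in HF and from -0.33 over 0.15 to 0.30 in HF-Q, and differed by 0.12 ± 0.066 (SE). The values of these genes rest on the following 60-base probes, which are shown because Tap1, Psmb8 and Psmb9 had the largest differences.
Tap1 probe: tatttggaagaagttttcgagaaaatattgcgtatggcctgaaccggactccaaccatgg
Psmb8 probe: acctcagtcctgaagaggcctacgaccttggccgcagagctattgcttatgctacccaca
Psmb9 probe: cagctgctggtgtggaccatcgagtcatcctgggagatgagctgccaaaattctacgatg
The probes lie on chromosome 17 of build mm9, that of Tap1 from 34330854 to 34330913 on the plus strand, that of Psmb8 from 34337771 to 34337830 on the plus strand and that of Psmb9 from 34319174 to 34319233 on the minus strand. Their exon positions were not analysed here. Tap1 and Psmb9 are transcribed away from each other from a shared stretch of DNA, and their RefSeq promoter windows overlap over 275 of 300 bases. The part upstream of the Tap1 start that holds its matches is shown on the Tap1 strand.
Tap1 (chr17:34187329-34187479, plus strand): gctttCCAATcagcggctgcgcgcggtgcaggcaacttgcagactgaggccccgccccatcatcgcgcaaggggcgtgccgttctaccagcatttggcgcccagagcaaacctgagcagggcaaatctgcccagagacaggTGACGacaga
In the Psmb9 window the same CCAAT and TGACG matches stand on the opposite strand. The interferon motifs searched gave no match in this window.

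Nlrc5, the activator of class I transcription, was the most variable of the 10. It ranged from -0.51 over -0.11 to 0.73 in HF and from -0.53 over 0.094 to 0.58 in HF-Q, and its means of -0.042 ± 0.38 (SD, n = 12) and 0.081 ± 0.36 (SD, n = 11) differed by 0.12 ± 0.14 (SE). The highest mouse was HF replicate 10 and the lowest HF-Q replicate 7. Its SD within diets, 0.37, was at percentile 93.8 of all genes, followed by Tap1 (89.8), Psmb8 (89.5), Psmb9 (86.4) and B2m (80.7), whereas Psmb10 (47.2) and Tapbp (47.1) lay near the middle.

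Probes of the same gene were in part dim. The second H2-K1 probe, A_55_P2049647 (chromosome 17, 34133984 to 34134043 of mm9), gave a difference of 0.10 ± 0.083 (SE), in the direction of the brightest probe. The second Psmb9 probe, A_55_P2038983, was well above background on 0 of 23 arrays, and the second Nlrc5 probe, A_66_P113043, on 3 HF and 0 HF-Q arrays, so both were left out. Over probes, none of the 11 tested was called and 3 had an unadjusted p under 0.05 in the higher direction, where 0% and 2.02% of all 29249 probes did. No spot of the 10 genes was saturated. Tap1 and H2-K1 had 10 spots per array and B2m had 2. The median SD between spots of an array was 0.077 for Tap1, 0.047 for H2-K1 and 0.022 for B2m, and the SD between mice of a diet was 0.31, 0.22 and 0.24.

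The mean of the 10 genes in each mouse was -0.069 ± 0.18 over the 12 HF mice and 0.091 ± 0.23 over the 11 HF-Q mice (SD), a difference of 0.16, and 9 of 11 HF-Q mice were above the HF median. The size of that difference varied between slides, and its dependence on the slide was not tested. The mean differed by 0.27 on slide 1, 0.038 on slide 2 and 0.15 on slide 3, and by 0.16 with the slide as a block. On slide 2 H2-K1 (-0.12), H2-D1 (-0.037), Tap2 (-0.028), Tapbp (-0.13) and Nlrc5 (-0.0018) were lower in HF-Q. Tap1, Psmb8, Psmb9, Psmb10 and B2m were higher with quercetin on each slide, Tap1 by 0.49, 0.19 and 0.23 and Psmb9 by 0.38, 0.22 and 0.26. Slide 2 held 3 HF-Q mice, with means of the 10 genes of 0.21 (replicate 1), 0.32 (replicate 5) and -0.45 (replicate 7). A test of the slide itself, which did not choose the genes, called 0 of the 10 and 0% of all genes in limma with the diet in the model.

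HF-Q replicate 7 stood apart from the other HF-Q mice. Its mean over the 10 genes was -0.45, the lowest of all 23 mice, and it was the lowest mouse of all for 6 of the 10 genes. The next lowest mean was that of HF replicate 12, at -0.34. The array of HF-Q replicate 7 also had the largest root mean square deviation from its diet's means over all genes, 0.31, where the others had 0.16 to 0.30. Without it the mean of the 10 genes differed by 0.21, H2-K1 by 0.10 and Tap1 by 0.36. The part of array quality in this mouse's values was not tested.

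Over the 23 mice the 10 genes varied together. The median Pearson r of the 45 pairs was 0.72, with a range of 0.32 to 0.93, and 39 pairs were above 0.5 (median Spearman rho 0.72, range 0.28 to 0.92). With diet means removed the median r was 0.71, and with diet and slide means removed 0.74. The closest pairs were Psmb8 with Psmb9 and with Tap1 (both r = 0.93), Tap1 with Psmb9 (0.92), Psmb8 with Psmb10 (0.91), H2-D1 with B2m (0.91) and H2-K1 with H2-D1 (0.89). The weakest were Nlrc5 with H2-K1 (0.32) and with B2m (0.37). Part of the genes fell into sets whose pairs mostly had higher r than the pairs between the sets. The ranges overlapped, since B2m with Tap1 (0.83) exceeded Tap1 with Psmb10 (0.82). The 3 pairs of H2-K1, H2-D1 and B2m had r of 0.85 to 0.91, the 6 pairs of Tap1, Psmb8, Psmb9 and Psmb10 had r of 0.82 to 0.93, and the 12 pairs between these sets had r of 0.45 to 0.83, with a median of 0.70. These sets were named after the values were seen, and Tap2, Tapbp and Nlrc5 were placed in neither.

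The pattern differed in tightness between diets. In HF the median r was 0.59, from -0.091 for H2-K1 with Nlrc5 to 0.92 for Tap1 with Psmb8, and 27 of 45 pairs were above 0.5. In HF-Q the median was 0.83 and all 45 were above 0.5. Without HF-Q replicate 7 the median over 10 HF-Q mice was 0.68, from 0.052 to 0.93, with 30 pairs above 0.5. Over the 22 remaining mice it was 0.66, with 38 pairs above 0.5. The difference between diets was not tested. Set against the mean of the other 9, with diet means removed, each gene had r between 0.64 for Nlrc5 and 0.92 for Psmb8, with Tap1 at 0.91 and Psmb10 at 0.89. The heat map of pairs gives each diet separately.

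**Figure D2:**
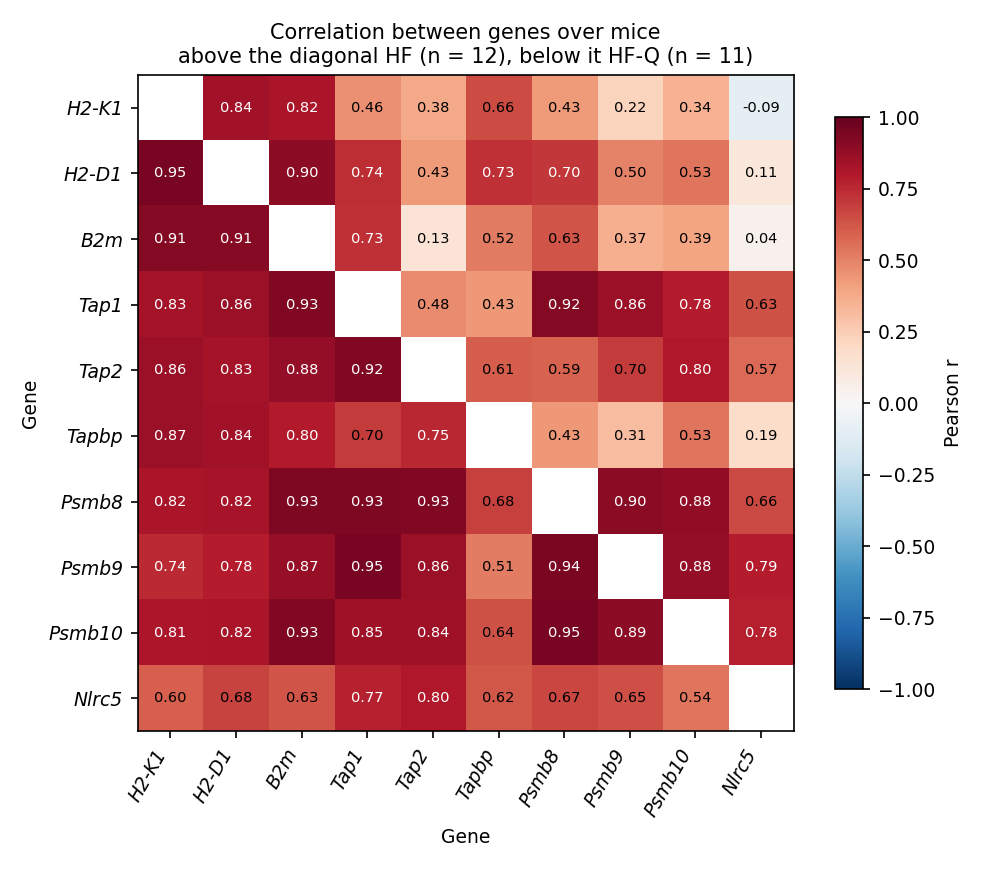
Pearson r between each pair of the 10 genes (both axes) over 12 HF mice above the diagonal and 11 HF-Q mice below it, coloured from -1 to 1. The heavy chains with B2m, and Tap1 with the immunoproteasome subunits, hold most of the darkest squares in HF, while all pairs exceed 0.5 in HF-Q, which holds replicate 7.

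The genes with the most similar pattern were found by their r with the mean of the 10 genes over 23 mice, with diet means removed, among 15136 other named genes. Over all genes 2.17% had r above 0.5 (467 of 21477), and the 5th to 95th percentile ran from -0.39 to 0.39. The nearest was Igtp, an interferon-inducible GTPase (r = 0.96), which ran from -1.62 in HF-Q replicate 7 to 0.90 in HF-Q replicate 5. It was followed by the related GTPases Irgm2 (0.92) and Ifi47 (0.91), the apolipoprotein L gene Apol10a (0.90), the heavy-chain gene H2-Q8 (0.90) and Gm12250 (0.90), another GTPase of that family. Also among the 10 nearest were Irf1 (0.89), the interferon regulatory factor, granzyme B (Gzmb, 0.86) and Ubd (0.86), a ubiquitin-like protein that interferon-gamma induces. Without HF-Q replicate 7 Igtp was again first (r = 0.94).

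The 5 genes that ran most against the 10 were Pecr (r = -0.81), a peroxisomal enoyl-CoA reductase, the efflux pump Abcc5 (-0.75), Bex2 (-0.75), the retinoic acid receptor Rarg (-0.73) and the glutathione transferase Gsta3 (-0.71). Pecr was highest, at 0.38, in HF-Q replicate 7. Without that mouse Pecr had r of -0.68 and Gsta3 -0.54.

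Other genes were compared with each of the 10 genes over the 23 mice, 50 pairs in all, with two-sided permutation tests (100000 resamples) and Benjamini-Hochberg adjustment over the 50. Those described here are Irf1, a factor of interferon-gamma signalling, Ciita, the class II counterpart of Nlrc5, and Cd8a and Gzmb, genes of cytotoxic lymphocytes. In all 34 pairs were called at adjusted p under 0.05 by Pearson r and 35 by Spearman rho. The 10 genes vary together, so the called pairs are not separate results. The p values take no account of the choice of genes with earlier results known. The share of all genes called in this way was not analysed here. By another measure, which is not comparable with the count of called pairs, 2.17% of all genes had r above 0.5 with the mean of the 10, with diet means removed. Of the genes described here, Irf1 (0.89), Gzmb (0.86) and Cd8a (0.82) were above 0.5 by that measure and Ciita (0.38) was not.

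Irf1 varied with all 10 genes. Its r ran from 0.56 with Tapbp to 0.89 with Psmb8, with a median of 0.77 (median rho 0.76), and all 10 were called, with adjusted permutation p of 4.17e-05 to 0.00886. With Psmb8 its r was 0.83 within HF and 0.95 within HF-Q, 0.88 without the 2 mice farthest from the Irf1 median, and 0.93, 0.95 and 0.85 on the slides. The median r with the 10 genes was 0.75 with diet means removed and 0.69 without those 2 mice, and 0.77, 0.84 and 0.83 on slides 1, 2 and 3. Without HF-Q replicate 7, 9 of the 10 pairs were called.

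Gzmb and Cd8a were also called with all 10 genes. Gzmb, the granule protease of cytotoxic cells, had r of 0.55 with Nlrc5 to 0.91 with Tap1 (median 0.77, median rho 0.76), with adjusted permutation p of 4.17e-05 to 0.011. With Tap1 the rho was 0.90 and r was 0.90 in HF, 0.86 in HF-Q, 0.87 without the 2 mice farthest from the Gzmb median, and 0.94, 0.90 and 0.90 on the slides. Cd8a, the co-receptor that binds class I, had r of 0.52 with Nlrc5 to 0.84 with Tap1 (median 0.76, median rho 0.73), with adjusted permutation p of 4.17e-05 to 0.0179. Its median r with the 10 genes was 0.73 with diet means removed and 0.78, 0.85 and 0.75 on the slides. The second probe of Cd8a had r of 0.63 with the mean of the 10, against 0.82 for the brighter probe, with diet means removed. The smallest p that these permutations can give is 1e-05, which 12 of the 50 pairs reached.

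Ciita was called with fewer of the genes. Ciita had r of 0.12 with Tapbp to 0.58 with Psmb8 (median 0.41, median rho 0.45). It was called with 4 genes, Tap1 (r = 0.51), Psmb8 (0.58), Psmb9 (0.52) and Psmb10 (0.55), with adjusted permutation p of 0.00763 for Psmb8 to 0.0179 for Tap1. That count was 2 with diet means removed, 1 without the 2 mice farthest from the Ciita median, 0 with Cy5 alone, 2 without HF-Q replicate 5 and 8 without HF-Q replicate 7. A single probe of Irf1, of Ciita and of Gzmb passed the filter.

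**Figure D3:**
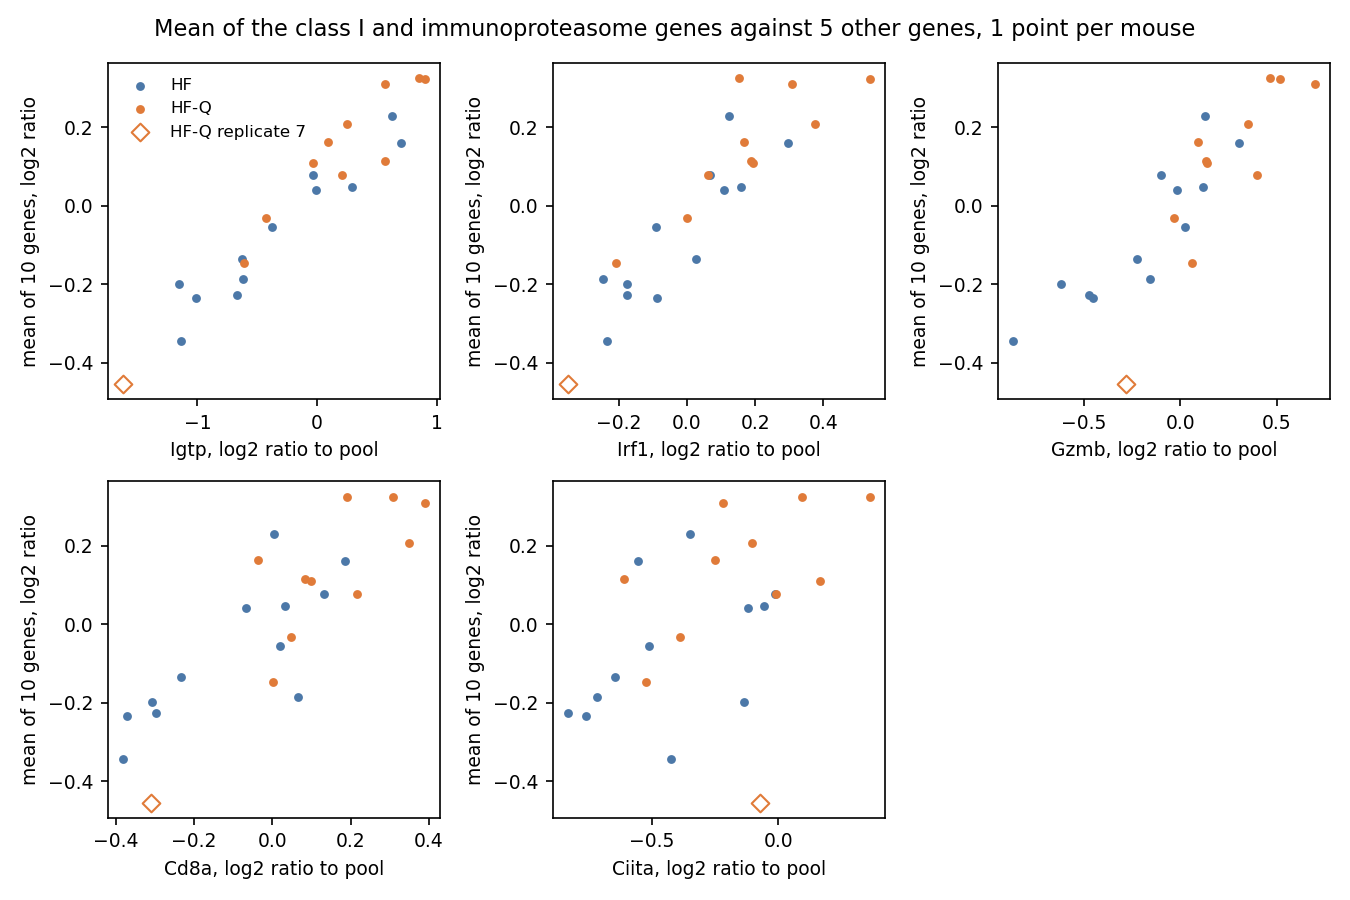
Mean log2 ratio of the 10 genes (y axes) against the log2 ratio of Igtp, Irf1, Gzmb, Cd8a and Ciita (x axes), 1 point per mouse, coloured by diet. Points rise along Igtp, Irf1, Gzmb and Cd8a and scatter more widely for Ciita (median r with the 10 genes 0.41).

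The other genes of the pathway were read from lists. Of the genes listed as class I heavy chains besides H2-K1 and H2-D1, 15 of 17 were measured, 11 higher and 4 lower with quercetin, with 0 called. Their median difference was 0.099, where the median of all genes was -0.0038. These figures include H2-Ke6, among the lower genes. The highest was H2-Q4 (0.30 ± 0.40 SE, from -0.32 on slide 3 to 1.78 on slide 2) and the lowest H2-Ke6 (-0.12 ± 0.059), which is named for its place in the region and encodes a hydroxysteroid dehydrogenase, not a heavy chain. In their likeness to the 10 genes H2-Q7 (r = 0.84), H2-T23 (0.83) and H2-Q6 (0.80) were high, while Cd1d1, which presents lipids, was at -0.20 and the iron regulator Hfe at -0.62. The signal of heavy-chain probes may include RNA of H2-K1 or H2-D1, and its part in these r values was not tested. The peptide-loading list had 9 of 9 measured, 7 higher and 2 lower, 0 called and a median of 0.044, between Calr (0.11 ± 0.067), a chaperone of the heavy chain, and the peptidase Ide (-0.016 ± 0.064). Tapbpl, a relative of tapasin that edits peptides (r = 0.74), and Erap1, the peptidase that trims peptides (0.63), were the most like the 10.

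Of 18 measured genes of the constitutive proteasome and its regulators 16 were higher and 2 lower, with 0 called and a median difference of 0.050, from Psma1 (0.20 ± 0.073) to Psmb6 (-0.045 ± 0.037). The median likeness of the 18 was r = 0.18. Psmb5 (-0.11), Psmb6 (0.13) and Psmb7 (0.033), the subunits that Psmb8, Psmb9 and Psmb10 replace, had r near 0. Psme1 (0.75) and Psme2 (0.84), which form the interferon-inducible activator cap PA28, were high, and Psme3 (0.044), of the nuclear cap, had r near 0. The difference in r between these genes was not tested.

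Genes of the interferon-gamma pathway ranged widely in likeness, in the signal list as among the induced genes. The mean of the signal and regulator list had r of 0.92 with the mean of the 10 genes, and that of the induced genes 0.80, both with diet means removed. By single genes the order was the other way, with a median r of 0.30 in the signal list and 0.52 among the induced genes. These differences were not tested. Of the signal and regulator list 18 of 19 were measured, 9 higher and 9 lower, 0 called and a median of 0.0001, from Nfyb (0.16 ± 0.064) to Rfxap (-0.082 ± 0.056). The cytokine Ifng itself had r of 0.82 with the mean of the 10, Stat2 0.69, Irf8 0.66 and Irf9 0.62, while the receptor genes Ifngr1 (-0.12) and Ifngr2 (0.11) had r near 0. Ifng was well above background on only 6 of 12 HF arrays and on 11 of 11 HF-Q arrays, so its r rests in part on dim signal. Of 18 genes that interferon-gamma induces, 15 were higher and 3 lower, with 0 called and a median of 0.13, from Ubd (0.63 ± 0.45) to Gbp4 (-0.062 ± 0.12). In likeness they ranged from Igtp (0.96) to Gbp5 (-0.021), with Ido1 at 0.83 and Cxcl11 and Gbp6 near 0 (-0.0099 and 0.023). All 8 genes of the MHC class II list, which holds Ciita but not H2-Oa, were higher, with 0 called and a median of 0.38. They ran from H2-Aa (0.57 ± 0.20) to H2-DMb2 (0.082 ± 0.079), and their median r with the class I genes was 0.73. The class II gene H2-Oa, outside that list, was lower with quercetin (-0.11 ± 0.099 SE).

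**Figure D4:**
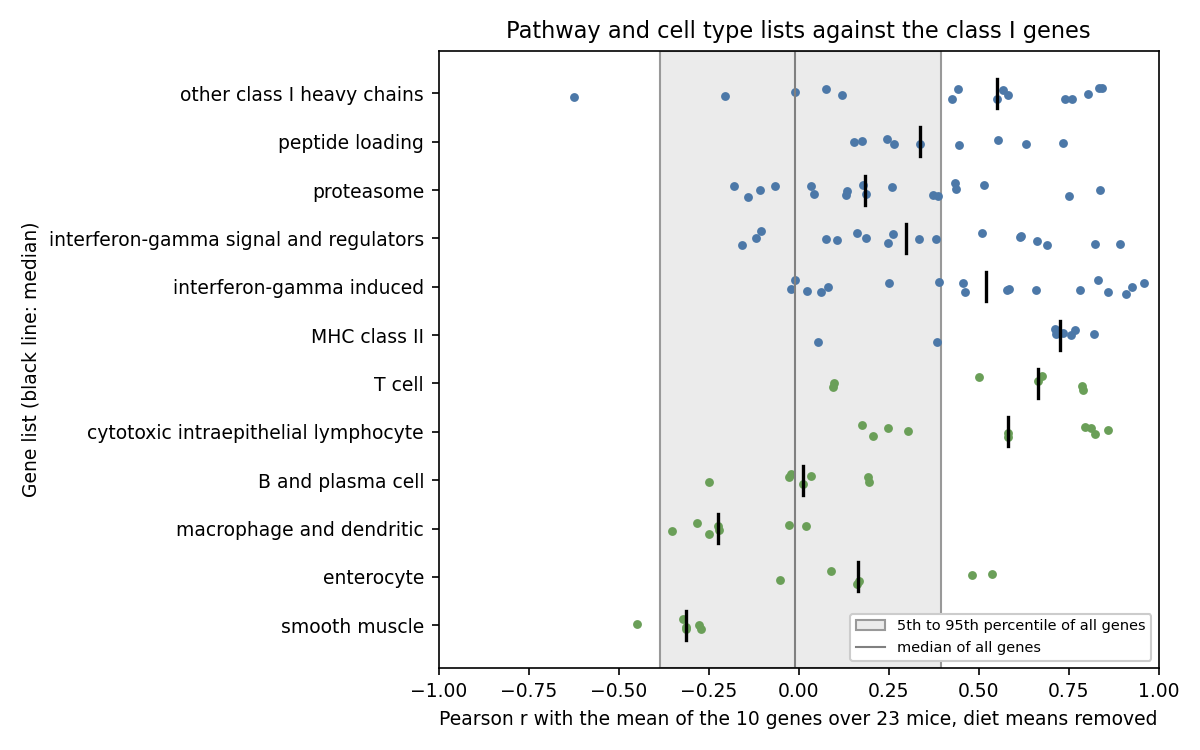
Pearson r over 23 mice, diet means removed, of each listed gene with the mean of the 10 genes (x axis), by list (y axis); black lines are list medians and the grey band holds the 5th to 95th percentile of all genes (-0.39 to 0.39). MHC class II and T cell genes have the highest medians, and those of macrophage and smooth muscle genes lie below 0.

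The means of the cytotoxic lymphocyte and T cell markers varied with the mean of the 10 genes, though not every marker did. The 10 markers of cytotoxic intraepithelial lymphocytes, 7 of them well above background on all arrays, had a mean of -0.081 ± 0.20 in HF (range -0.39 to 0.21) and 0.11 ± 0.15 in HF-Q (range -0.055 to 0.34), and their mean had r of 0.83 with that of the 10 genes (0.80 with diet means removed). The likeness ran from Gzmb (0.86), Cd8a (0.82), Ccl5 (0.81) and Gzma (0.79) down to Cd8b1 (0.21) and Klrd1 (0.17). All 7 T cell markers were on all arrays, with means from -0.31 to 0.25 in HF and -0.18 to 0.37 in HF-Q and r of 0.77 (0.73 with diet means removed), and Cd4 was at 0.097. The part of lymphocytes in the values of the 10 genes was not tested. The means of B and plasma cell markers (r = 0.054), of pancreatic acinar enzymes (-0.016) and of ileal markers (-0.15) had r near 0 with the mean of the 10. Macrophage and dendritic (-0.33), smooth muscle (-0.37) and endothelial markers (-0.50) ran against it, enterocyte markers had r of 0.15, and Ptprc, on all leukocytes, had 0.39. Smooth muscle markers ran from -0.86 to 1.19 in HF and -1.61 to 0.89 in HF-Q and acinar enzymes from -3.64 to 1.82 and -3.73 to 2.29. Both sets of markers thus varied widely between mice, and the makeup of the scrapings was not measured. Markers of proximal small intestine had r of 0.034 and hepatocyte markers -0.16.

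Of the 10 genes 6 lie within 287 kb on chromosome 17 (34065963 to 34353175 of mm9), from Tapbp through H2-K1 to Psmb9, Tap1, Psmb8 and Tap2. H2-D1 lies apart on the same chromosome (probe from 35403886 to 35403945), B2m on chromosome 2 (121978401 to 121978460), and Psmb10 (108459677 to 108459736) and Nlrc5 (97051105 to 97051164) on chromosome 8. The stretch held 12 named genes that were neither among the 10 nor class II genes. The median r of these 12 with the mean of the 10 was -0.0006, from -0.48 for Ring1 to 0.75 for H2-K2. H2-K2 is a heavy-chain relative, whose probe may share signal with H2-K1, and the only one of the 12 above 0.5. The differences between diets of the 12 ran from -0.12 to 0.056. Rps18 (r = -0.37), Wdr46 (0.0093) and Brd2 (0.087), between the class I genes, were not above 0.5, and of the 4 class II genes there H2-DMa (0.76) and H2-DMb1 (0.72) were and H2-DMb2 (0.054) and H2-Oa (-0.098) were not. With the mean of the other 9 genes and diet means removed, the 6 genes inside the stretch had r of 0.69 (Tapbp), 0.73 (H2-K1), 0.83 (Tap2), 0.84 (Psmb9), 0.91 (Tap1) and 0.92 (Psmb8). The 4 outside it had r of 0.64 (Nlrc5), 0.79 (B2m), 0.84 (H2-D1) and 0.89 (Psmb10), so the ranges overlapped.

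**Figure D5:**
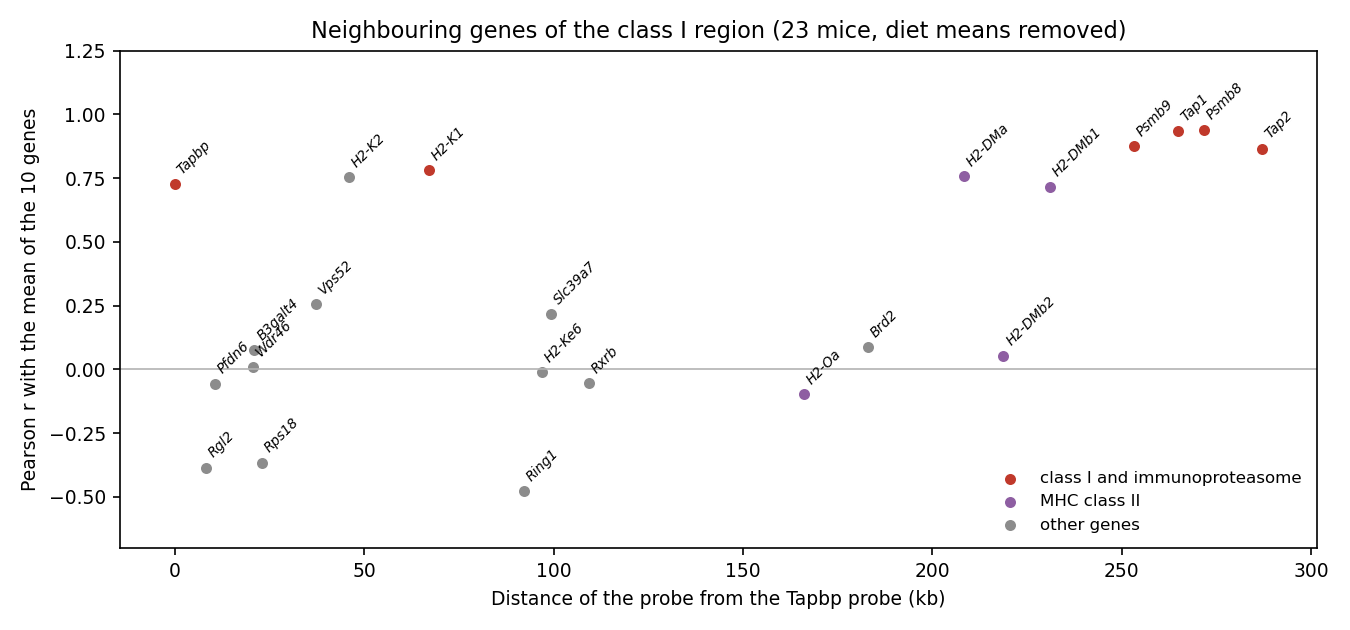
Pearson r with the mean of the 10 genes over 23 mice, diet means removed (y axis), against distance of the probe from the Tapbp probe in kb (x axis), for named genes of the 287 kb stretch. Class I and immunoproteasome genes lie high, which their share in the mean adds to, and most genes between them lie near 0, with H2-K2 at 0.75.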

How the data were processed

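The members and lists were chosen with earlier results of these data known. Per the submitters' processing notes, Agilent Feature Extraction 10.7.3.1 produced the array files. Their deposited spot and background columns hold linear intensity, not normalized between arrays. The deposited files also hold the software's log10 ratio of Cy5 over Cy3 and flags for saturated, outlying and dim spots. The authors' own table gives log2 values for 31718 spots with a median of 9.11 on every array, and they correlated over spots with the log2 Cy5 signal of the same array at 0.996 to 0.999 (Cy3 at 0.986 to 0.994), so higher means more RNA, while its normalization is not stated. The log10 ratio and the log2 values entered as alternatives. Here limma 3.58.1 (R 4.3.3) applied normexp (offset 50) and then loess within arrays, with 3671 control spots at weight 0. There was no dye swap, so dye bias of a probe enters every array alike. Outlying spots, 260 to 355 on each array, were left out, and a probe's spots averaged. Probes well above background in Cy5 on 50% of the arrays of either diet were kept (29249), and a gene's brightest probe was used. The diets were compared in lmFit and eBayes without covariates, two-sided, with Benjamini-Hochberg adjustment and a threshold of 0.05, and slides by an F test. The code was tested on simulated data. Named are the genes with the highest and lowest difference of each list, the 10 most and 5 least like the set, and any on which a result turns, and some of these are not reported here. Names came from RefSeq (GRCm38.p6) by accession for 27235 probes, symbol for 3581 and synonym for 565, and 24300 kept the file's name. The number of arrays limits the precision. Replicate numbers did not pair the mice.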

Additional observations from a re-analysis of the deposited data

How the results depend on the processing

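All 10 genes had a higher HF-Q mean under each of the alternatives for background, normalization, channel, filter and probe, with the authors' log2 values, and without each mouse in turn. The exceptions were the 5 genes lower on slide 2 alone. The count of genes called between diets was 0 in each, and without HF-Q replicate 2 the slide effect called 1 gene (0 to 1 over mice left out). Of the 50 pairs with other genes 34 were called, 32 to 37 without a mouse, and 9, 7 and 13 within slides 1, 2 and 3, which hold 7 or 8 mice. The median r of the 45 pairs was 0.69 to 0.82 over the alternatives. The mean difference of the 10 genes was 0.16, from 0.13 without HF replicate 12 to 0.21 without HF-Q replicate 7, and 0.26 with median centring. Replicate numbers shared by the diets did not pair the mice: over 11 pairs, deviations of same-numbered mice correlated at -0.34 to 0.39 (5 above 0.1), and 1 of 11 correlated best with its own number. With the replicate block the count of genes called was 0, the mean difference was 0.13, and 37 pairs were called. Array weights were applied to the tests only. All 10 genes were well above background on all 23 arrays, so signal limits only the 2 dim probes left out.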

Other observations

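Chosen after the values were seen from the genes next most like the set (r over 23 mice with diet means removed), Oasl2 (0.85) and Ifit1 (0.84), which interferons induce in antiviral defence, followed the 10 genes, as did Tnfsf10 (0.84), a death ligand, and the RNA editor Adar (0.80). The values were 0.78, 0.76, 0.80 and 0.65 without HF-Q replicate 7. Of the genes of T cells Lck (0.79), a kinase of the receptor, and Cd3g (0.79) were near. Of the 6 enterocyte markers Vil1 alone (0.54) was above 0.5, and their median r was 0.16. Against the set ran Ephx1 (-0.71), an epoxide hydrolase, at -0.54 without that mouse.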
